A study of Danio rerio with 6 samples.

Results

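The spliceosome and SR protein genes were described in heads of zebrafish embryos labelled slbp1-/-. The set held every gene of the deposited count table whose symbol, ignoring case, starts with snrp, sf3a, sf3b, srsf, prpf or u2af, which gave 53 of 32520 genes. By symbol they fell into 12 core snRNP genes (snrp), 9 SF3 genes (sf3a and sf3b), 11 PRPF genes (prpf), 18 SR genes (srsf) and 3 U2AF genes (u2af). Genes named snrnp do not start with these letters and are given with the other spliceosome genes further on. RNA sequencing compared 3 libraries of mutant heads, of the allele rw440 by their titles, with 3 libraries of heads from wildtype siblings, all at 2 days post fertilization. The stem-loop binding protein recognises the hairpin at the end of replication-dependent histone mRNAs, which are made as DNA is copied. The lesion, the number of heads in a library and any shared clutch are not given in the labels, so p-values measure only the spread among the 6 libraries, part of which may be technical.

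Introns are removed from pre-mRNA by the spliceosome, a machine of small nuclear ribonucleoproteins (snRNPs) and auxiliary proteins. In each of the snRNPs U1, U2, U4 and U5 a ring of Sm proteins surrounds the RNA. The SF3A and SF3B complexes belong to the U2 snRNP and hold the branch site, and U2AF marks the 3' end of the intron beforehand. PRPF proteins form parts of the U4/U6.U5 tri-snRNP or join later steps, while SR proteins bind exons and recruit the machinery to them. The roles named here were established for the human and yeast proteins. Splicing is needed in all cells, but many splicing proteins are more abundant in dividing cells, and neurons add regulators of their own.

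Libraries held 4419886 to 5395071 counts in mutants and 3421961 to 5258641 in siblings, and 3 counts, the floor used per library, stood for 0.519 to 0.776 CPM (read counts scaled to a common library size with TMM factors). Of 18 listed posterior trunk and tail genes, matched to 20 genes, 1 passed the count filter, and their summed level was 3.31 to 5.33 CPM in mutants and 2.85 to 4.33 CPM in siblings. Among 24 listed head region genes, matched to 26, 25 were tested, with a summed level of 1328 to 1652 CPM in mutants and 1158 to 1412 CPM in siblings. The slbp transcript (ENSDARG00000100558) had 180, 144 and 183 CPM in mutants and 98.1, 104 and 87.2 CPM in siblings. With no lesion described, this level does not check the genotypes. Mutant replicate 3 was set off from mutant replicates 1 and 2, with the lowest TMM factor (0.788) and a second principal component of -43.2 against 23.6 and 34.3.

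Of 50 spliceosome and SR protein genes tested, 44 had a positive log2 fold change in mutant heads, and 22 passed the test. Of the 50 members that passed the count filter, 21 were called higher and 1 was called lower at an adjusted p under 0.05 by edgeR's quasi-likelihood test. Over all 15561 genes tested, 12.9% were called higher and 12.8% lower. The median log2 fold change (mutant minus sibling) was 0.44 over the 50 members and 0.00 over all genes. Nearly all members are well counted, and 48 of them averaged 15 CPM or more. Among the 8146 genes at that level, 17.2% were called higher and 12.9% lower, against 21 and 0 of the 48 members. The tested members under that level were srsf10a, the 1 member called lower, and SRSF7. The 0 lower therefore follows from the level, which was chosen after seeing the data. Of the 21 risers, 19 lay under a 2-fold difference, and in all 21 every mutant library exceeded every sibling library. Such a separation was seen in 33 of 50 members with mutants above and in 2 with mutants below, while 21.8% of all tested genes had mutants above and 21.8% had them below. These shares cover genes of every level and were not taken for genes of 15 CPM or more alone. The separations were counted on TMM-scaled CPM, which a lower factor raises. Every mutant factor (0.788 to 0.998) lay below every sibling factor (1.04 to 1.14). Separations with total counts alone were not counted.

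The count depended on how libraries were scaled and on single libraries. Scaled by total counts alone, the median of all genes moved to -0.26 and that of the members to 0.18, so the members lay 0.44 above all genes on the log2 scale. In that fit 8 members were called higher and 2 lower, where 7.04% of all genes were called higher and 17.9% lower. Without 1 library, 22 members were called higher without mutant replicate 2, 13 without mutant replicate 3, 11 without mutant replicate 1, 10 without sibling replicate 2, and 8 without sibling replicate 1 or without sibling replicate 3. Calls across the table fell as well, from 2015 of 15561 genes higher with all libraries. In the order above they were 1952, 1755, 1612, 1598, 1363 and 1458 of 15968 to 16433 genes. The median log2 fold change of the members in these fits was 0.35 to 0.54. The calls on 7 members were present in each of the 14 alternative fits: SNRPF, SNRPE, SNRPD1, SNRPA1, SF3B4, SF3B3 and srsf10b.

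**Figure D1:**
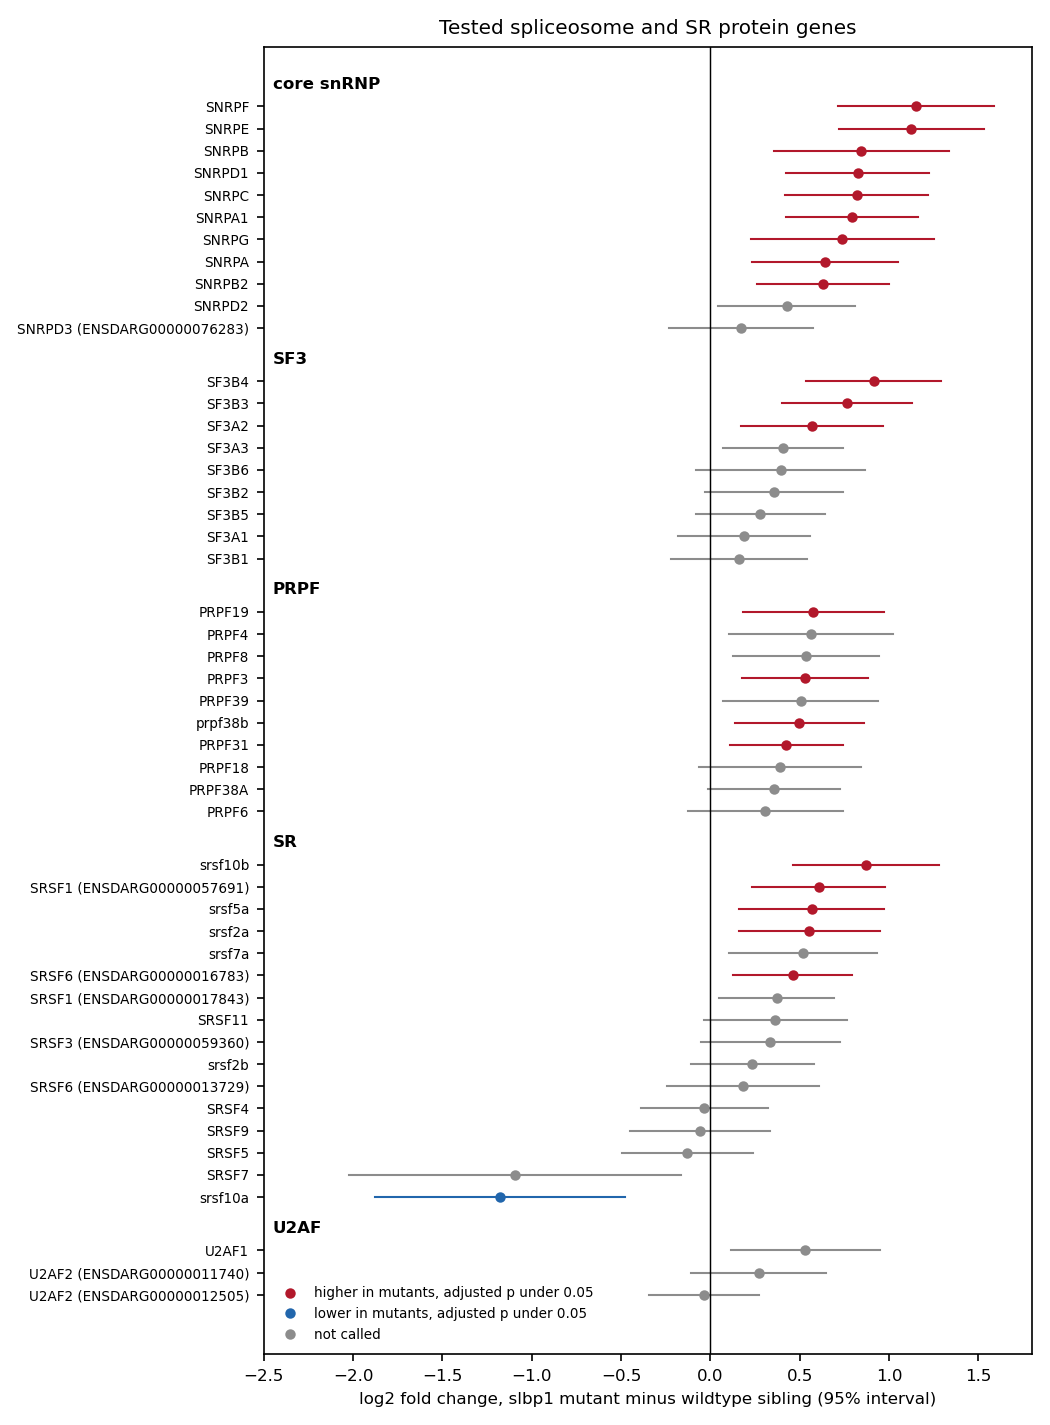
Log2 fold changes of 49 tested members, slbp1 mutant minus wildtype sibling, with 95% intervals as lines, ordered within role groups. Points in red or blue passed an adjusted p of 0.05; 9 of 11 core snRNP genes are red, and srsf10a is the 1 blue point.

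Core snRNP genes showed the highest median of the role groups. Of 11 tested, 9 were called higher and 0 lower, against 12.9% and 12.8% of all genes, with a median log2 fold change of 0.79. All 11 had a positive value, and 10 remained positive when scaled by total counts alone, where SNRPD3 (ENSDARG00000076283) had -0.12 and 5 were called. In that fit 7.04% of all genes were called higher. Summed over the 12 genes, the level was 1845, 1665 and 2634 CPM in mutants, against 1133, 1306 and 1216 CPM in siblings. That is a 1.68-fold higher mean in mutants, and by TMM-scaled CPM mutant replicate 3 was the highest library for each of the 11 tested genes.

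Among the Sm proteins, SNRPF had 79.7, 81.0 and 126 CPM in mutants and 37.3, 48.7 and 42.8 CPM in siblings. Its log2 fold change was 1.15 ± 0.20 (SE, adjusted p = 0.0015). SNRPE, its neighbour in the ring, had 81.3, 69.3 and 108 CPM in mutants and 39.3, 37.1 and 42.2 CPM in siblings, a log2 fold change of 1.13 ± 0.19 (adjusted p = 0.000987). In both genes the lowest mutant library lay well above the highest sibling library, and these were the members raised more than 2-fold. SNRPD1 had 209, 183 and 293 CPM in mutants against 121, 135 and 131 CPM in siblings (0.82 ± 0.19 on the log2 scale). SNRPB, which drew more reads than any other core gene, had 727, 688 and 1151 CPM in mutants and 424, 530 and 474 CPM in siblings (0.85 ± 0.23). Without sibling replicate 1 its adjusted p was 0.0705, and without sibling replicate 3 it was 0.0694. SNRPG averaged 60.2 ± 15.8 CPM in mutants and 35.8 ± 9.38 CPM in siblings (means ± SD, n = 3), and its groups came close, with 44.2 CPM in the lowest mutant against 42.4 CPM in the highest sibling. Its call was absent without mutant replicate 2 or 3 or without any 1 sibling library (adjusted p 0.052 to 0.142).

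SNRPD2 and SNRPD3 completed the ring and were not called. SNRPD2 averaged 208 ± 45.9 CPM in mutants and 155 ± 8.43 CPM in siblings (means ± SD, n = 3), with a 95% interval of 0.04 to 0.81 on the log2 scale. SNRPD3 (ENSDARG00000076283) had 80.4, 64.8 and 106 CPM in mutants and 81.5, 71.0 and 70.4 CPM in siblings, so the groups overlapped, with an interval of -0.23 to 0.57. A second gene of that symbol (ENSDARG00000013800) had 1 count in mutant replicate 2 and 0 in the other libraries.

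Transcripts of the 4 core snRNP genes particular to U1 or U2 were all called higher, against 12.9% of all genes tested. SNRPC, the C protein that helps U1 grip the 5' splice site, averaged 53.7 ± 9.76 CPM in mutants, the lowest at 42.4, and 30.4 ± 1.92 CPM in siblings, the highest at 31.6 (log2 fold change 0.82 ± 0.19). SNRPA1, a partner of the U2 RNA, had 116, 83.3 and 121 CPM in mutants and 59.5, 62.5 and 62.7 CPM in siblings (0.79 ± 0.17). SNRPA of U1 and SNRPB2 of U2 were higher by log2 differences of 0.64 and 0.63. The SNRPA call was absent without mutant replicate 3, sibling replicate 1 or sibling replicate 3 (adjusted p 0.0718 to 0.106). The SNRPB2 call was absent without mutant replicate 1 or any 1 sibling library (0.0515 to 0.0753). Scaled by total counts alone, SNRPA1 was called. SNRPC, SNRPA and SNRPB2 were not called in that fit (adjusted p 0.0651, 0.0989 and 0.158 by edgeR's test).

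In the SF3 group 3 of 9 tested genes were called higher and 0 lower, with a median log2 fold change of 0.39. SF3B4, which contacts RNA next to the branch site, had 129, 139 and 171 CPM in mutants and 68.1, 92.2 and 72.2 CPM in siblings (0.91 ± 0.17, adjusted p = 0.00244). SF3B3, a scaffold of the complex, had 334, 275 and 371 CPM in mutants against 181, 198 and 197 CPM in siblings (0.77 ± 0.17, adjusted p = 0.00544). In both genes all mutants stood above all siblings. SF3A2 had 234, 222 and 335 CPM in mutants and 165, 187 and 181 CPM in siblings (0.57 ± 0.18). Its call was present with all libraries and without mutant replicate 2, and absent without any other 1 library (adjusted p 0.0527 to 0.123).

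The other subunits of this group were not called. SF3B1, the subunit that clamps the branch helix, had 467, 388 and 508 CPM in mutants and 398, 416 and 406 CPM in siblings, and the groups overlapped. Its interval, -0.22 to 0.54 on the log2 scale, excludes a 2-fold difference. SF3B2, with the highest mean CPM of the group by a narrow margin over SF3B1, had 460, 436 and 556 CPM in mutants and 377, 408 and 350 CPM in siblings, with an interval of -0.03 to 0.74. SF3A3, SF3B6, SF3B5 and SF3A1 had log2 fold changes of 0.40, 0.39, 0.28 and 0.19. Scaled by total counts alone, SF3B1 had -0.12 and SF3A1 -0.08.

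PRPF genes were the most alike among themselves, with all 11 log2 fold changes between 0.31 and 0.58 and a median of 0.50. Of these, 4 were called higher and 0 lower, against 12.9% and 12.8% of all genes. Over genes of 15 CPM or more, 17.2% were called higher. PRPF19, a ubiquitin ligase and core of the PRP19 complex, had 157, 143 and 225 CPM in mutants and 108, 121 and 123 CPM in siblings (0.58 ± 0.18, adjusted p = 0.0353). It is among the 100 protein-coding genes on either side of slbp in the RefSeq order of another assembly, GRCz12tu, and was the only member there by symbol. PRPF3, of the U4/U6 snRNP, had 89.4, 68.4 and 88.3 CPM in mutants and 56.7, 53.5 and 60.6 CPM in siblings (0.53 ± 0.16). PRPF31, which bridges U4/U6 and U5, had 140, 120 and 123 CPM in mutants against 95.7, 96.4 and 92.8 CPM in siblings (0.43 ± 0.15). prpf38b had 237, 195 and 243 CPM in mutants and 135, 176 and 167 CPM in siblings (0.50 ± 0.17).

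These 4 calls lay near the threshold. None of the 11 PRPF genes was called (0 calls by edgeR's test) without mutant replicate 1, without any 1 sibling library, or when scaled by total counts alone, and 1, PRPF31, was called without mutant replicate 3. PRPF8, at the catalytic centre, had 387, 414 and 554 CPM in mutants and 281, 342 and 312 CPM in siblings with an adjusted p of 0.0539, and it was called by DESeq2 (0.0275) and limma-voom (0.0489). PRPF39, a U1-associated protein, had 428, 407 and 628 CPM in mutants and 319, 368 and 343 CPM in siblings (adjusted p = 0.0806). PRPF4 (0.56), PRPF18 (0.39), PRPF38A (0.35) and PRPF6 (0.31 on the log2 scale) were not called either.

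**Figure D2:**
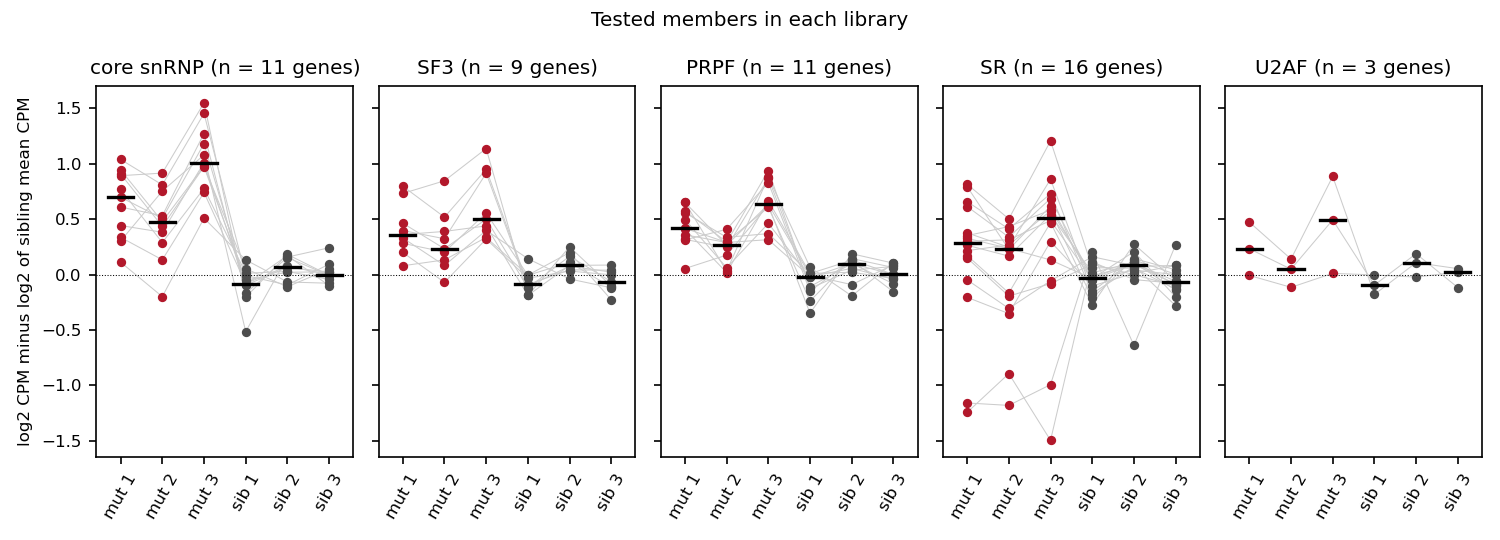
Each tested member in each library, as log2 CPM minus the log2 of its sibling mean, with mutants in red, siblings in grey, and a black bar at the median of each role group in each library. With TMM-scaled CPM, mutant replicate 3 has the highest median in every group, 1.01 for core snRNP genes. Mutant replicate 2 has the lowest of the mutants, 0.48 there.

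The mutant libraries differed among themselves. By TMM-scaled CPM, mutant replicate 3 was the highest mutant library for 41 of 50 tested members and mutant replicate 2 the lowest for 38. Mutant replicate 3 had the lowest TMM factor (0.788), which raises its CPM, and these ranks were not taken over all genes. As a share of all counts, which no scaling factor touches, the 53 genes took 1.04%, 0.968% and 1.04% in mutants and 0.884%, 0.912% and 0.903% in siblings. The core snRNP genes took 0.176%, 0.165% and 0.207% in mutants and 0.128%, 0.135% and 0.136% in siblings. On this measure mutants stood above siblings in both cases. Mutant replicate 3 was not the highest mutant library in every group here. SR genes took 0.411% in mutant replicate 1 and 0.378% in mutant replicate 3, and SF3 genes 0.202% and 0.196%. PRPF genes took 0.200% and 0.207% in these libraries. For the U2AF genes the shares overlapped, at 0.0465% to 0.0519% in mutants and 0.0482% to 0.0510% in siblings.

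Of 16 SR genes tested, 5 (31.25%) were called higher and 1 (6.25%) lower, against 12.9% and 12.8% of all genes. The median log2 fold change was 0.35. The largest rise was in srsf10b, with 230, 185 and 301 CPM in mutants and 136, 136 and 119 CPM in siblings (0.87 ± 0.19, adjusted p = 0.00498). SRSF1 (ENSDARG00000057691), the archetypal SR protein, had 414, 349 and 435 CPM in mutants and 233, 276 and 278 CPM in siblings (0.61 ± 0.17). srsf2a, with the most reads of the group, had 695, 574 and 731 CPM in mutants and 443, 491 and 426 CPM in siblings (0.55 ± 0.18). srsf5a had 519, 350 and 459 CPM in mutants against 289, 320 and 287 CPM in siblings (0.57 ± 0.19). SRSF6 (ENSDARG00000016783) had 224, 237 and 263 CPM in mutants against 174, 187 and 165 CPM in siblings (0.46 ± 0.15).

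In all 5 the mutant libraries stood above the siblings, but only srsf10b was called in each alternative fit. Without mutant replicate 1 or any 1 sibling library srsf10b was the only SR gene called higher, and without mutant replicate 3 it was called with SRSF1 (ENSDARG00000057691) and srsf5a. Scaled by total counts alone srsf10b was again the only 1 of the 16 called higher, where 7.04% of all genes were, so the SR share did not exceed that of all genes. The tested genes SRSF4, SRSF9 and SRSF5 had log2 fold changes of -0.03, -0.06 and -0.13, with intervals from -0.50 to 0.34 across the 3. SRSF3 (ENSDARG00000059360) averaged 482 ± 66.4 CPM in mutants and 382 ± 33.5 CPM in siblings (means ± SD, n = 3), with an interval of -0.06 to 0.72. SRSF11 and srsf7a, at 0.36 and 0.52, were not called. The second copies SRSF1 (ENSDARG00000017843), srsf2b and SRSF6 (ENSDARG00000013729) had log2 fold changes of 0.37, 0.23 and 0.18 and were not called either.

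The single member called lower was srsf10a, the other copy of the gene for the SR-related splicing regulator SRSF10. It had 3.94, 5.02 and 3.31 CPM in mutants and 10.1, 9.04 and 8.83 CPM in siblings, with every mutant below every sibling. Its log2 fold change was -1.18 ± 0.32 (adjusted p = 0.0177). These levels rest on 14 to 22 counts per mutant library and 39 to 51 per sibling library. Without mutant replicate 1 the adjusted p was 0.0528 and without sibling replicate 1 it was 0.0605. SRSF7 (ENSDARG00000101057), likewise low, had 2.32, 2.28 and 2.60 CPM in mutants and 5.95, 3.32 and 6.23 CPM in siblings (-1.09 ± 0.43, adjusted p = 0.0784). The groups did not overlap, and it was called lower only when scaled by total counts alone (adjusted p = 0.044).

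Zebrafish carry many of these genes as duplicate copies. The log2 ratio of the more abundant to the less abundant copy was compared in 7 pairs by an exact permutation test over the 6 libraries (two-sided), whose smallest possible p is 0.1, so no pair could pass 0.05. For srsf10b over srsf10a the ratio was 5.72, 5.09 and 6.34 in mutants and 3.70, 3.85 and 3.69 in siblings. The difference of 1.97 had p = 0.1 by the exact permutation test (adjusted p = 0.175 over the 7 pairs). Put as reads, srsf10a took 1.68%, 2.64% and 1.09% of the pair's counts in mutants and 6.89%, 6.23% and 6.89% in siblings.

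For srsf7a over SRSF7 the difference in log2 ratio was 1.44, and for srsf5a over SRSF5 it was 0.67, with no overlap between the groups in either and p = 0.1 by the exact permutation test for each. These pairs were added after the symbols were seen. SRSF5 took 27.3%, 31.8% and 29.7% of its pair's counts in mutants and 43.8%, 39.9% and 36.6% in siblings. The 2 SRSF1 genes differed by 0.24 without overlap (p = 0.1, exact permutation test). The pairs of srsf2, SRSF6 and U2AF2 differed by 0.31, 0.28 and 0.30 with overlapping groups, at exact permutation p of 0.2, 0.3 and 0.2. The treatment of reads that match both copies is not given in the sources used here, so values of near-identical copies are uncertain. For SRSF3 (ENSDARG00000025397), with 1 to 11 counts per library, and for srsf3a, with 0 counts in each library, no test was made.

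**Figure D3:**
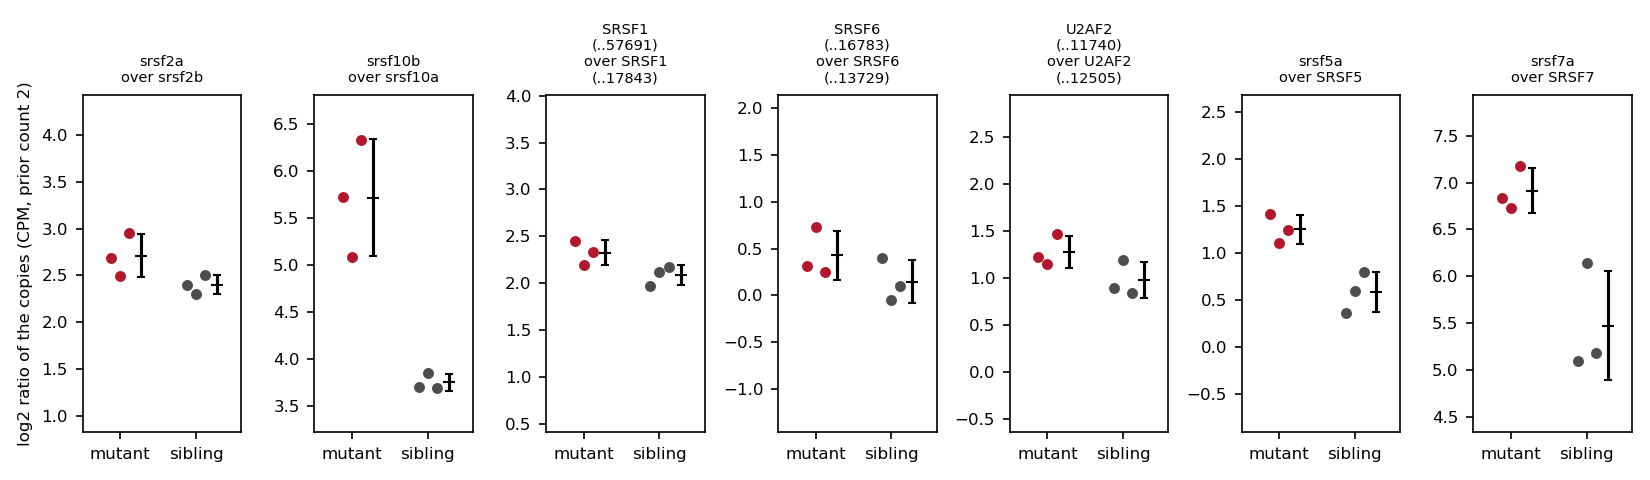
Log2 ratio of the copies of 7 duplicated genes in each library, mutants in red and siblings in grey, with the mean and SD (n = 3) beside them; each axis spans the same range. The srsf10 pair shows the widest separation, 5.09 to 6.34 in mutants and 3.69 to 3.85 in siblings.

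None of the 3 U2AF genes was called in edgeR's test (0 calls, and 0 by DESeq2 and by limma-voom), and 1 had an unadjusted p under 0.05. U2AF1, which reads the terminal AG of the intron, had 181, 144 and 241 CPM in mutants and 115, 141 and 135 CPM in siblings (0.53 ± 0.19, adjusted p = 0.0587). It was called without mutant replicate 2 (adjusted p = 0.0241) and without a low-count filter (0.041). U2AF2 (ENSDARG00000011740), for the subunit on the polypyrimidine tract, had 255, 224 and 305 CPM in mutants and 203, 247 and 200 CPM in siblings, with overlapping groups. Its second gene, ENSDARG00000012505, averaged 107 ± 4.96 CPM in mutants and 109 ± 1.73 CPM in siblings, with an interval of -0.34 to 0.27 on the log2 scale. Of the 28 uncalled members in all groups, 26 had a 95% interval within 2-fold in either direction, the exceptions being PRPF4 and SRSF7.

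Other genes of the splicing pathway were set beside the members, from lists of 389 symbols in 19 lists. Over all genes tested 12.9% were called higher and 12.8% lower. Among the other snRNP proteins 8 of 31 tested genes were higher and 0 lower, with a median log2 fold change of 0.33. They included SNU13 (ENSDARG00000023299), a U4/U6 binding protein (1.40), SNRNP40 of U5 (0.69), and LSM5 and LSM7 of the ring on U6 (1.07 and 0.70). The second gene of the symbol SNU13 had 0.39 and was not called. In the list for assembly of snRNPs, which holds the SMN complex, 5 of 14 were higher and 0 lower, with a median of 0.64. GEMIN8, snurportin SNUPN, the Sm chaperone CLNS1A and the Sm methyltransferase PRMT5 were higher by 0.95, 0.88, 0.88 and 0.74. In the list of PRP19 complex proteins, step factors and helicases 4 of 37 were higher, with CRNKL1 at 0.68 and AQR at 0.77, and 1, the helicase gene ddx39b, was lower at -0.87. Both counts of that list lay below the shares over all genes, while its median was 0.27 and 30 of the 37 were positive. In 16 of the 37 every mutant library exceeded every sibling library, against 21.8% of all tested genes of any level, and in 1 every mutant lay below. Of 14 branch and 3' splice site factors 3 were higher (PUF60, dnajc8 and CHERP) and 0 lower, with a median of 0.11.

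Scaling by total counts alone left 1 of 31, 3 of 14, 1 of 37 and 0 of 14 genes higher in these lists, in the order above. In that fit 7.04% of all genes were called higher and 17.9% lower. Only the list for assembly of snRNPs lay above the share called higher. In the exon junction complex list RBM8A was higher (0.62) and upf3a lower (-1.91), with 6 of 8 not called. Both counts were near the shares over all genes (12.9% and 12.8%), and the median was 0.25, with 7 of 8 positive. Scaled by total counts alone, 0 of this list were called higher and 1 lower.

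Regulators of alternative splicing were set beside the core genes in the same way, with no test of the difference between lists. Of 30 tested genes in the list named neural splicing regulators 14 were lower and 0 higher, with a median log2 fold change of -0.66. Over all genes 12.8% were lower and 12.9% higher. The list also holds ESRP1, ESRP2, RBM24 and rbfox1l, so it is not confined to genes of neurons. Scaled by total counts alone, 17 were lower and 0 higher. With TMM factors 16 were not called and 5 were positive, among them srrm4 (0.35) and the PTBP2 genes (0.22 and 0.12). RBFOX1 (-2.33), CELF3 (ENSDARG00000006983, -1.55), KHDRBS2 (-1.70) and celf5a (-1.61), all RNA-binding proteins of neurons, had the lowest p-values. In the hnRNP list 4 of 35 were higher and 3 lower, with a median of 0.21, and both counts lay below the shares over all genes (12.9% and 12.8%). PTBP1 (ENSDARG00000019362), the repressor of neuronal exons, was higher by 0.98, and taf15, HNRNPK (ENSDARG00000018914) and HNRNPAB (ENSDARG00000099865) by 1.14, 0.72 and 0.75. The second genes of the symbols PTBP1, HNRNPK and HNRNPAB had -0.06, -0.19 and 0.37 and were not called. The fallers were pcbp3 (-2.82), HNRNPDL (-1.04) and PCBP4 (-0.72). Scaled by total counts alone, 4 of this list were higher and 8 lower, where 7.04% of all genes were higher and 17.9% lower. Among 28 SR-related proteins and SR kinases, TNPO3, the nuclear importer of SR proteins, was higher (0.58), and SRPK3 (-1.52) and DYRK1A (ENSDARG00000063570, -0.51) were lower, shares below those over all genes. Scaled by total counts alone, 0 of these 28 were called higher and 5 lower, the latter near the 17.9% of all genes. With TMM factors the median of the list was -0.10, and the second gene of the symbol DYRK1A had -0.11 and was not called.

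**Figure D4:**
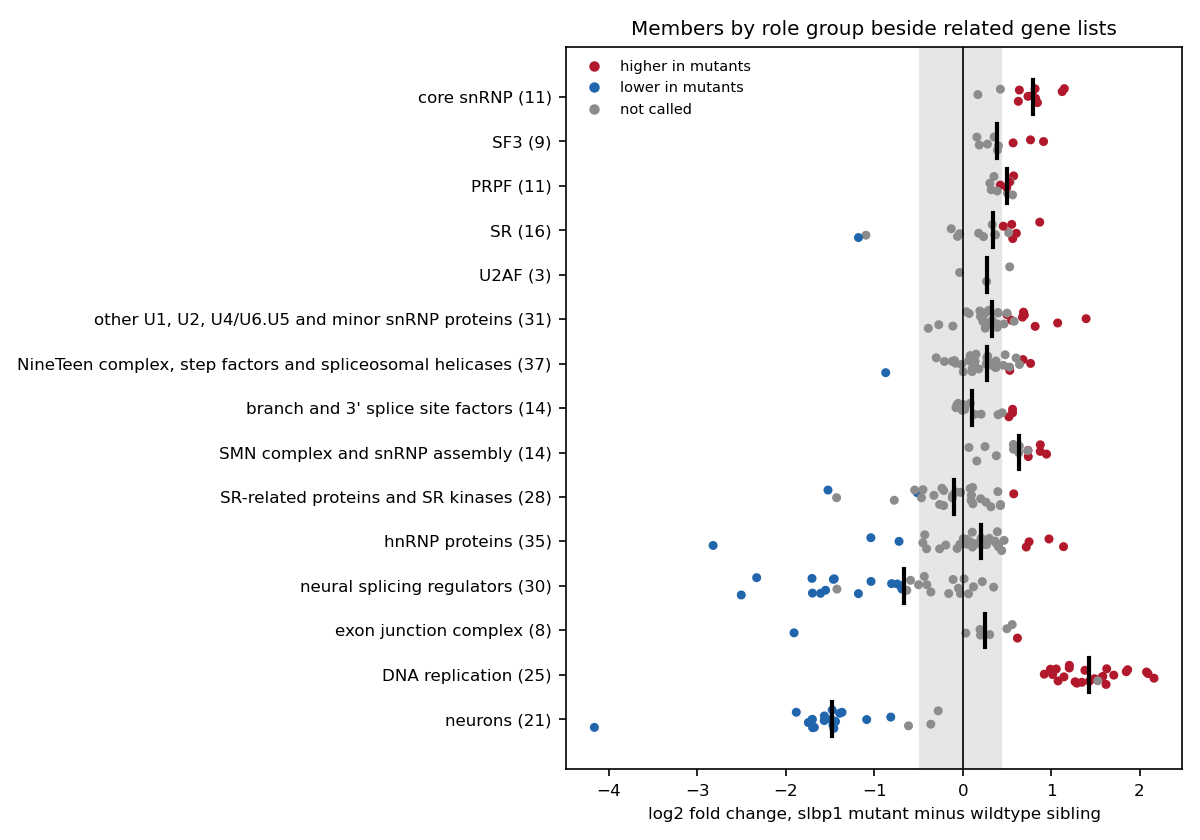
Log2 fold changes (slbp1 mutant minus wildtype sibling) of the tested members by role group, of related splicing lists, and of the DNA replication and neuron lists, with the number of genes in brackets, a black bar at each median, and colours for the call at an adjusted p of 0.05. The grey band holds the middle of all tested genes, from -0.48 to 0.43; core snRNP genes have a median of 0.79, DNA replication genes 1.43 and neuron genes -1.48.

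Lists of DNA replication genes and of cell type markers were set beside the members as well, with no test of a link. Of 25 tested DNA replication genes 24 were higher and 0 lower, with CDC6 (2.16) and TYMS (2.08) at the lowest p-values and a summed level of 8495 to 12608 CPM in mutants and 3271 to 4507 CPM in siblings. Of 21 tested neuron genes 18 were lower and 0 higher, among them GNG3 (-1.70), with a summed level of 1587 to 2653 CPM in mutants and 3963 to 5358 CPM in siblings. ELAVL3 and ELAVL4 stand in both the neuron list and the list of neural splicing regulators. Photoreceptor genes (9 of 12 lower, as crx at -4.81 and PRDM1 at -4.60) and skeletal muscle genes (8 of 10 lower, as atp2a1 and TNNC2 at -3.81 and -4.11) fell too. Of 10 erythroid genes, hbae5 and hbaa1 were higher and 0 lower. The summed erythroid level overlapped between the groups, at 388 to 2137 CPM in mutants and 708 to 1014 CPM in siblings. The lens, vascular, macrophage and epidermis lists had 0 genes called by edgeR's test with TMM factors among 12, 7, 7 and 12. In these lists 0, 0, 0 and 1 genes had an unadjusted p under 0.05 by that test. With total counts alone 2 epidermis genes were called lower, where 17.9% of all genes were. The part of these cell types in the values of the splicing genes was not tested. In whole heads, a change in the number of cells of a type and a change in RNA per cell cannot be told apart.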

How the data were processed

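The authors deposited raw counts per Ensembl gene in 1 table. HISAT2, featureCounts and the build GRCz11 are named, without versions, per the submitters' processing notes. Annotation release, strand setting and treatment of multi-mapping reads were not given in the sources used here. A reference table gave symbols for 29201 of 32520 genes, and 361 of 389 listed symbols were matched. Upper-case symbols can stand for several copies. No sequences were used here, and no coordinates are given.

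Genes were kept by filterByExpr and compared with edgeR 4.0.16 in R 4.3.3 (TMM factors, robust quasi-likelihood test, two-sided, Benjamini-Hochberg adjustment over all tested genes, threshold 0.05). The SE is the absolute log2 fold change over the square root of the F statistic, and 95% intervals use its t quantile. CPM values use TMM-scaled library sizes. On simulated counts, with changes of 2-fold or more, the test recovered large changes more often than small ones. It made somewhat more false calls there than its nominal rate. Changes under 2-fold, as in most members called here, were not simulated.

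Alternatives were other size factors and filters, DESeq2 1.42.0, limma 3.58.1 (voom), removal of 21 histone genes, a replicate block and each library left out. The members and gene lists were chosen with earlier results of these data known. By the naming rule, library values are given for up to 5 called genes per role group and direction by lowest p, the gene with the highest mean CPM, and the largest change, and up to 4 called genes per splicing list and direction are named (2 for cell type lists). Other members are named to account for the set, and further genes of the neural splicing list to show its breadth. The values of 1 member and of 1 listed neuron gene are not reported here, though both are in the counts and medians. The level of 15 CPM was chosen after seeing the data. No pair of replicates agreed within sampling noise (chi-square per degree of freedom 6.76 to 19.6 over genes with 20 or more counts). Floors and counts cover counting error only.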

Additional observations from a re-analysis of the deposited data

How the results depend on the processing

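Of 22 called members, 7 were called in each of 14 alternatives and 15 lost the call in 1 or more; of 28 uncalled members 6 were called in 1 or more, and 0 called members changed sign. With total counts alone, higher calls were 1095 over all genes and 8 among the members (core snRNP 5, PRPF 0, SR 1), lower calls were 2 among the members and among SR genes, and medians were 0.18 for all members, 0.51 for core snRNP, 0.13 for SF3, 0.21 for PRPF, 0.0711 for SR and -0.00645 for U2AF; the construction lowers all values by about the shift of all genes. Leaving out 1 library gave 2521 to 3763 called genes (1363 to 1952 higher, 1158 to 1811 lower), 8 to 22 members higher and 0 to 1 lower, 5 to 9 core snRNP genes higher, 2 to 3 SF3, 0 to 4 PRPF, 1 to 5 SR and 0 to 1 U2AF, with 0 to 1 SR genes lower; fewer samples are part of the construction. U2AF had 1 higher call without a low-count filter. The replicate block gave 5059 genes, 24 members higher and 1 U2AF gene higher, and srsf2a lost its call there (adjusted p = 0.0545 by edgeR's quasi-likelihood test). Deviations from the group means in libraries of equal number had r of 0.24, 0.09 and 0.18, and every library was most like the one sharing its number, which is a hint from the data and not the design, since the labels state no pairing. For the copies, left-out libraries gave log2 differences of 1.66 to 2.28 for srsf10 and 1.25 to 1.77 for srsf7, while the SRSF6 pair had 0.13 without mutant replicate 2 and 0.18 without sibling replicate 2, and the srsf2 pair 0.19 without mutant replicate 3. The cause of these dependences was otherwise not tested. The floor of 0.519 to 0.776 CPM is the level of 3 counts in a library, and no smallest detectable difference was computed.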
